A study of Mus musculus with 6 samples.

Results

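The genes examined are those of the nuclear complex that writes N6-methyladenosine (m6A) into mRNA and of the enzymes that remove it. They were chosen by name: Mettl3, Mettl14, Wtap, Virma, Rbm15, Rbm15b, Zc3h13 and Cbll1 on the writing side, and Alkbh5 and Fto on the removing side. These are 10 of 43412 annotated mouse genes in the deposited tables, and all 10 passed the filter on low values. GC-2spd cells, an immortalized line made from spermatocytes of the mouse testis and labelled with the C57BL/6J background, were cultured in serum-containing DMEM in every group. Of the 6 poly(A) RNA libraries, 3 came from cells kept in a hypoxia workstation at 1% oxygen and 3 from cells in an ordinary incubator at 21% oxygen. The duration of 48 h is given by the study for hypoxic culture of these cells, although its account of this sequencing does not repeat it. Whether replicates were separate cultures is not given in the sources used here, so the p-values measure only the spread between these libraries.

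Methylation of the N6 position of adenosine is the most common internal modification of mammalian mRNA. METTL3 holds the catalytic site and binds the methyl donor S-adenosylmethionine, METTL14 holds the RNA beside it, and a set of accessory proteins keeps the pair in the nucleus and directs it to its sites. ALKBH5 and FTO take the methyl group off again with iron, 2-oxoglutarate and molecular oxygen, so both belong to the enzyme family that includes the oxygen-sensing hydroxylases. In mice, loss of Mettl3 or Mettl14 in germ cells disturbs spermatogenesis, and males without Alkbh5 have impaired fertility. In human cells ALKBH5 is a known target of the hypoxia-inducible factor HIF-1.

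Hypoxia-treated cells had 2.21 times the Alkbh5 mRNA and 1.87 times the Rbm15 mRNA of normoxic cells, but 0.602 times the Rbm15b mRNA. The promoters of these 3 genes are shown because, among the members called in both measures, they had the largest fold changes, and in different directions. Each window runs from 250 bases before to 50 bases after a start site annotated by RefSeq on GRCm38.p6, 5′ to 3′ on the strand of the gene. For Alkbh5 and Rbm15b the window lies wholly inside the span of the gene in the deposited tables, after its first base. The letters ACGTG and GCGTG, the core that HIF binds, were searched on both strands, and every match is in capitals (CACGT and CACGC are the same letters read from the other strand).
Alkbh5, chromosome 11, plus strand: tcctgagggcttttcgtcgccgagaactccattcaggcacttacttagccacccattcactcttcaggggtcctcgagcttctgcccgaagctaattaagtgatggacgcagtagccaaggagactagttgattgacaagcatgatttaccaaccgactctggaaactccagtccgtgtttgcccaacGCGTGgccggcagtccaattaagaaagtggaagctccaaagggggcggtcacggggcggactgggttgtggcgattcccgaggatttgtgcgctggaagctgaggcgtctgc
Rbm15, chromosome 3, minus strand: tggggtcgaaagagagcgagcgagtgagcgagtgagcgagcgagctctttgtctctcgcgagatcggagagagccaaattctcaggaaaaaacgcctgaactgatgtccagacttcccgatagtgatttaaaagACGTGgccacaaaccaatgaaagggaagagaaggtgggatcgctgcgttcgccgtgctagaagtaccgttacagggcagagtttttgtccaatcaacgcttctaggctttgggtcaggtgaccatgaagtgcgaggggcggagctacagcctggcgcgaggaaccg
Rbm15b, chromosome 9, minus strand: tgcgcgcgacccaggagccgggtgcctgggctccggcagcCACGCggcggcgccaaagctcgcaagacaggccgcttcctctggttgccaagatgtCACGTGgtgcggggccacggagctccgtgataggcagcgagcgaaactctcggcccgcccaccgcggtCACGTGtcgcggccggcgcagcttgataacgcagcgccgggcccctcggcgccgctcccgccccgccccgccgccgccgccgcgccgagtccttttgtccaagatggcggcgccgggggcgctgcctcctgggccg
The window of Alkbh5 (60537433 to 60537732) holds 1 match, GCGTG, which starts at position −62 from the start site. The window of Rbm15 (107333240 to 107333539) also holds 1 match, ACGTG at position −116. The window of Rbm15b (106887026 to 106887325) holds 5 matches, since the palindrome CACGTG occurs at 2 places and each is counted on both strands. Its GC content is 75.3%, against a median of 52.7% over all mouse promoter windows. Such letters are common. Either core occurs in 43.8% of 32851 mouse promoter windows of this length, and 1.66% of them hold 5 or more matches. These windows were not matched for GC content. Of the 8 members with a RefSeq window (11 windows in all), 6 hold at least 1 match in some window (Alkbh5, Mettl3, Rbm15, Rbm15b, Wtap and Zc3h13). The other 2 hold none (Fto and Cbll1). This count is by gene, whereas the 43.8% is by window, and a window of Wtap (12992210 to 12992509) holds no match. Mettl14 and Virma were not searched. The matches are a description of the sequence and were found beside genes that were higher, lower and not called.

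Differences between groups are log2 fold changes or, in the same sense, log2 differences. Gene levels were read as TPM (transcripts per 1000000), a level corrected for transcript length whose annotated genes summed to 948284 to 981418 per library, and differences as log2(TPM + 1) with limma and Benjamini-Hochberg adjustment over the 13749 genes with a mean of at least 1 TPM. A gene is called when its adjusted p is under 0.05. A second measure, the deposited mean read depth over a gene's exons rescaled to 1000000 per library (scaled coverage, with no further unit), was added after the first values had been seen. The deposited TPM is added up over the transcripts assigned to a gene, whereas coverage does not depend on how reads are divided among them. For Rbm15, Rbm15b and Zc3h13 the measures differ only by a factor that is the same for every such gene of a library (0.752 to 0.788), so they are one measurement for these genes. Libraries held 5.80 to 6.72 gigabases of aligned sequence in hypoxia and 5.75 to 6.61 in normoxia. Read counts were not used here, so no counting interval is given.

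By TPM, 2 of the 10 members were higher in hypoxia (Rbm15 and Alkbh5) and 2 were lower (Mettl3 and Rbm15b). Over all tested genes, 17.9% were called higher and 36.1% lower. By coverage, 3 members were higher (Mettl14, Rbm15 and Alkbh5), against 25.0% of all genes, and 3 were lower (Mettl3, Wtap and Rbm15b), against 38.9% of all genes. In TPM the 2 groups of libraries did not overlap for 2 members that were higher, against 21.4% of all genes, and for 3 that were lower (Mettl3, Virma and Rbm15b), against 41.0%. In coverage they did not overlap for 3 higher and 3 lower members, against 27.9% and 42.2% of all genes. The members' counts lie near these shares, so the number of calls does not set the group apart. What can be described is which members differed and by how much. Over all tested genes the log2 fold change had a median of −0.13 by TPM, and scaling the libraries by the median ratio of their genes or by quantiles moved that median up by 0.134 and 0.135. With those scalings 3603 and 3575 genes were higher and 3622 and 3639 lower, against 2463 higher and 4967 lower in the unscaled TPM. Fold changes relative to the median of all genes are therefore given beside the measured ones for the 10 members, and not for the other genes named.

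**Figure D1:**
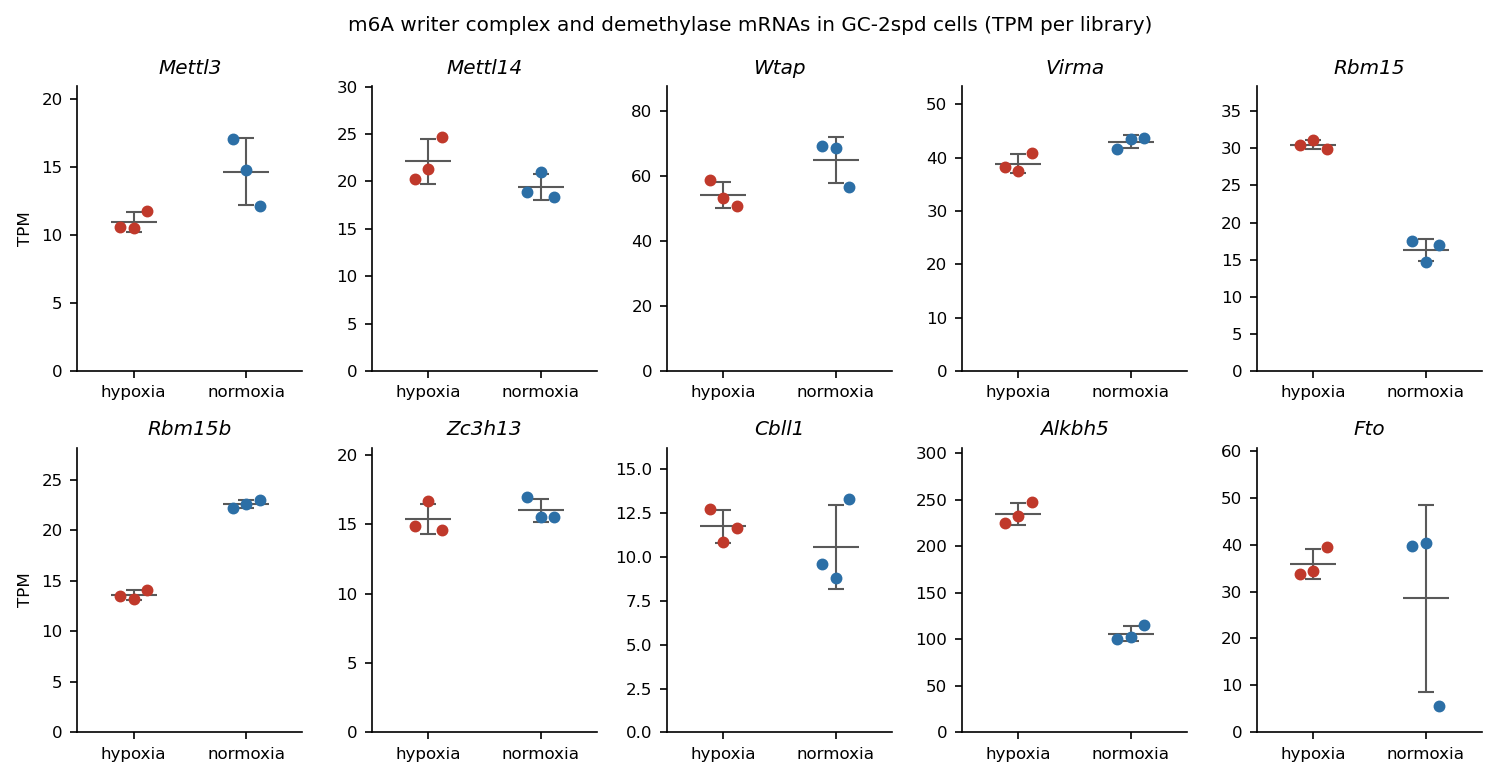
TPM of the 10 member genes in each library, with hypoxia (1% oxygen, red) left of normoxia (21% oxygen, blue). Points are single libraries, horizontal lines are group means and bars are ± 1 SD (n = 3 each). Alkbh5 and Rbm15 lie higher in all 3 hypoxia libraries, Rbm15b lies lower in all 3, and Fto has a single low normoxia library at 5.63 TPM.

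The catalytic gene Mettl3 had less mRNA in hypoxia-treated cells, although the call did not hold in every fit. Mettl3 (ENSMUSG00000022160, chromosome 14 of mm10, 52294668 to 52305128, minus strand) had 10.6, 10.5 and 11.8 TPM in the hypoxia libraries, against 17.1, 14.8 and 12.2 TPM in the normoxia libraries. All 3 hypoxia values were lower, but normoxia replicate 3 lay close above them. The ratio of the group means was 0.746, with a log2 difference of −0.38 (standard error 0.12, adjusted p = 0.037 from limma), and relative to the median of all genes it was −0.25. In coverage the level was 8.98, 8.66 and 8.88 in hypoxia, against 12.4, 11.4 and 9.94 in normoxia, a log2 difference of −0.31 (standard error 0.08, adjusted p = 0.015). The sign was negative in all 26 fits, and 17 of them called the gene. The call in TPM was lost when the libraries were rescaled by the median ratio (adjusted p = 0.128) or by quantiles (0.25), with no filter on low values (0.0847), and without hypoxia replicate 1 (0.0952), hypoxia replicate 2 (0.0979), normoxia replicate 1 (0.0957) or normoxia replicate 2 (0.0898). The log2 fold change was −0.25 and −0.18 with the 2 scalings and −0.38 to −0.27 in the other 5 of these fits. By coverage limma lost the call with median-ratio scaling (log2 fold change −0.22, adjusted p = 0.0522). The fit on TPM with a replicate block, given further below, did not call Mettl3 either. Exons of Mettl3 share 933 bases (18.4% of its exon sequence) with Tox4 on the other strand. Tox4 itself had 24.7, 20.3 and 24.3 TPM in hypoxia and 25.8, 23.1 and 23.8 TPM in normoxia, which overlap.

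Mettl14, the RNA-binding partner that has no catalytic activity of its own, had more mRNA than Mettl3 in every library by TPM. Mettl14 (ENSMUSG00000028114, chromosome 3, 123364645 to 123385990, minus strand) had 20.3, 21.3 and 24.7 TPM in hypoxia, against 18.8, 21.0 and 18.4 TPM in normoxia. The groups overlapped in TPM, and the log2 difference of 0.18 (standard error 0.09, adjusted p = 0.148), or 0.31 relative to the median of all genes, was not called. By coverage all hypoxia libraries were higher, with 13.3, 13.5 and 13.8, against 11.5, 12.2 and 10.7 in normoxia (log2 fold change 0.22, standard error 0.06, adjusted p = 0.0156). Leaving out any single library kept that call (adjusted p at most 0.0473). In TPM the gene was called higher only after scaling by the median ratio (log2 fold change 0.32, adjusted p = 0.0211) or by quantiles (0.36, adjusted p = 0.013).

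The core pair thus had opposite signs, and its balance within each library does not depend on how libraries are scaled. Mettl3 TPM was 0.521, 0.492 and 0.476 of Mettl14 TPM in the hypoxia libraries, against 0.906, 0.703 and 0.661 in the normoxia libraries. By coverage the ratios were 0.673, 0.640 and 0.645 in hypoxia and 1.08, 0.932 and 0.925 in normoxia. In both measures every hypoxia library lay under every normoxia library. The difference of the mean log2 ratios was −0.60 in TPM and −0.58 in coverage. An exact permutation test over the libraries, 2-sided, gave p = 0.1 in each measure, which is the smallest value that 3 libraries against 3 can reach (adjusted p = 0.133 in TPM and 0.1 in coverage over the 4 ratios tested).

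Among the accessory subunits, the paralogs Rbm15 and Rbm15b differed in opposite directions. Both encode RNA-binding proteins that bring the writer complex to its targets, among them the X-inactivation RNA Xist. Rbm15 (ENSMUSG00000048109, chromosome 3, 107326110 to 107333289, minus strand) had 30.5, 31.2 and 29.9 TPM in hypoxia, against 17.4, 14.6 and 16.9 TPM in normoxia, a ratio of 1.87. All 3 hypoxia libraries were far above the normoxia libraries, with a log2 difference of 0.87 (standard error 0.08, adjusted p = 0.000154) and of 1.00 relative to the median of all genes. Of all tested genes, 96.2% had a smaller log2 fold change.

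Rbm15b (ENSMUSG00000074102, chromosome 9, 106880918 to 106887428, minus strand) had 13.4, 13.2 and 14.1 TPM in hypoxia, against 22.1, 22.6 and 23.0 TPM in normoxia, a ratio of 0.602. The log2 fold change was −0.69 (standard error 0.06, adjusted p = 0.00013), and −0.56 relative to the median of all genes. The 2 groups were well apart and each varied little. Both genes kept their call and sign in all 26 fits, with adjusted p-values of at most 0.00186. The order of the pair turned over. Rbm15 had 2.27, 2.36 and 2.12 times the level of Rbm15b in the hypoxia libraries, against 0.788, 0.647 and 0.737 times in the normoxia libraries (exact permutation test, 2-sided, p = 0.1, adjusted p = 0.133, difference of the mean log2 ratios 1.64). The deposited span of Rbm15b lies wholly inside the deposited span of Manf on the same strand, although annotated exons of the genes share 14 bases only. Manf was not called in TPM (adjusted p = 0.285) or in coverage (adjusted p = 0.93).

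Wtap encodes the adaptor that holds METTL3 and METTL14 in nuclear speckles. Wtap (ENSMUSG00000060475, chromosome 17, 12966796 to 12992546, minus strand) had 58.8, 53.1 and 50.8 TPM in hypoxia, against 69.4, 68.7 and 56.7 TPM in normoxia. Hypoxia replicate 1 overlapped normoxia replicate 3, and the log2 difference of −0.25 (standard error 0.09, adjusted p = 0.0599), or −0.12 relative to the median of all genes, was not called. In coverage the groups were apart, with 36.2, 37.7 and 37.5 in hypoxia, against 46.3, 43.4 and 44.1 in normoxia (log2 fold change −0.26, standard error 0.04, adjusted p = 0.00104). All 8 fits of coverage called Wtap lower (adjusted p at most 0.00624), while 5 of the 18 fits on TPM or FPKM did.

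Virma, Zc3h13 and Cbll1 were not called in either measure. Virma, the large scaffold protein that guides methylation towards the ends of transcripts (ENSMUSG00000040720, chromosome 4, 11485958 to 11550684, plus strand), had 38.2, 37.6 and 40.9 TPM in hypoxia, against 41.5, 43.6 and 43.7 TPM in normoxia. These values did not overlap, but the log2 fold change was −0.14 (adjusted p = 0.0676) and −0.01 relative to the median of all genes. Zc3h13, the zinc finger protein that anchors the complex in the nucleus (ENSMUSG00000022000, chromosome 14, 75284373 to 75344426, plus strand), had 14.9, 16.6 and 14.6 TPM in hypoxia, against 17.0, 15.5 and 15.5 TPM in normoxia, with a log2 fold change of −0.06 (adjusted p = 0.569) and 0.08 relative to that median. Cbll1, which encodes the ubiquitin ligase HAKAI (ENSMUSG00000020659, chromosome 12, 31484829 to 31499616, minus strand), had 12.7, 10.8 and 11.7 TPM in hypoxia, against 9.60, 8.83 and 13.3 TPM in normoxia, with a log2 fold change of 0.16 (adjusted p = 0.408) and 0.29 relative to that median. The groups of Zc3h13 and Cbll1 overlapped in both measures, and the sign of Zc3h13 turned positive with median-ratio scaling (0.08) and with quantiles (0.14). Without normoxia replicate 3, its highest normoxia library, Cbll1 was called higher (log2 fold change 0.32, adjusted p = 0.0454). Limma also called it higher by coverage with median-ratio scaling (0.21, adjusted p = 0.0474), so in 2 of the 26 fits. Virma was called lower in 4 of the 26 fits, with the smallest adjusted p for FPKM (log2 fold change −0.18, adjusted p = 0.0189). Exons of Cbll1 share 704 bases with the antisense gene Gm29542, which was at or under 1.10 TPM in every library.

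Summed over the 8 writer genes, TPM was 194 to 199 in hypoxia and 199.6 to 213 in normoxia, and coverage was 193 to 195 in hypoxia and 193 to 199 in normoxia. The sum of the core pair was 30.8 to 36.5 TPM in hypoxia and 30.5 to 35.9 TPM in normoxia. The ranges of the core pair and of the coverage sums overlapped between the groups.

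**Figure D2:**
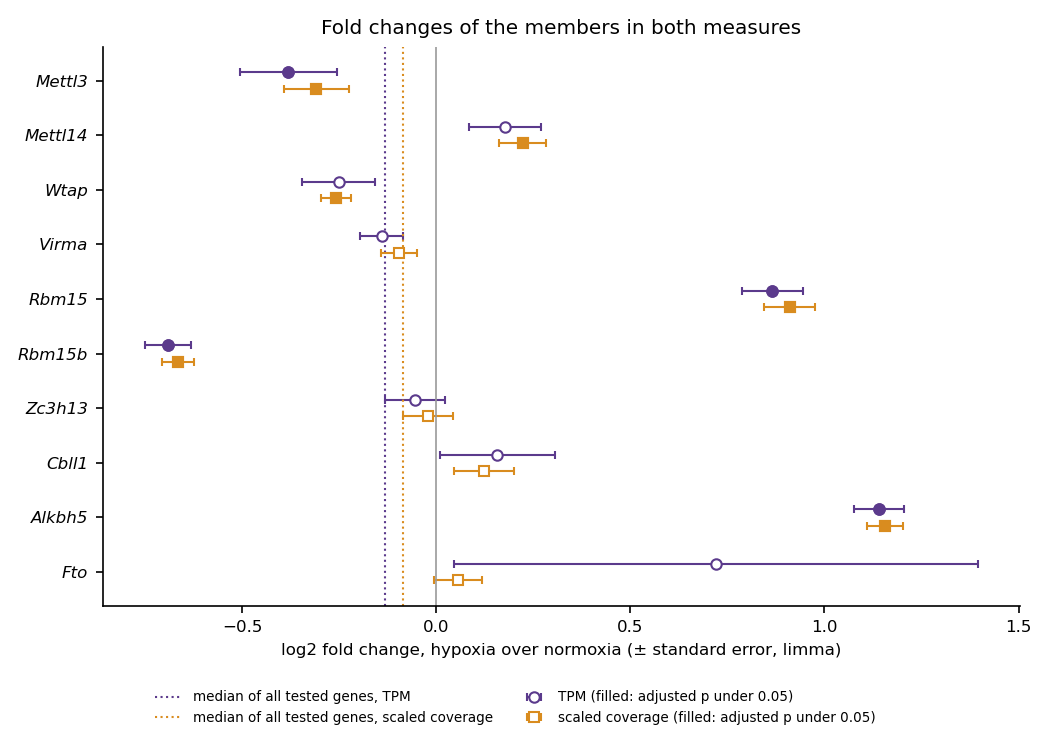
Log2 fold change of hypoxia over normoxia for each member, by TPM (circles) and by scaled coverage (squares), with bars of ± 1 standard error from limma. Filled symbols have an adjusted p under 0.05 and dotted lines mark the median of all tested genes. Alkbh5 and Rbm15 lie far right and Rbm15b far left in both measures, while the fold changes of Fto are 0.72 and 0.06.

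Alkbh5, one of the m6A demethylases, was the most abundant of the 10 members in both groups and had the largest fold change. Alkbh5 (ENSMUSG00000042650, chromosome 11, 60536381 to 60558512, plus strand) had 225, 233 and 248 TPM in hypoxia, against 101, 103 and 115 TPM in normoxia. All hypoxia libraries stood well above the highest normoxia library. The ratio of the means was 2.21 and the log2 fold change 1.14 (standard error 0.07, adjusted p = 2.59e-05), or 1.27 relative to the median of all genes. By coverage it had 124, 126 and 135 in hypoxia, against 57.4, 54.7 and 59.7 in normoxia, a log2 fold change of 1.15 (adjusted p = 3.25e-06). All 26 fits called it higher, with log2 fold changes from 1.08 to 1.29. Annotated exons of Alkbh5 overlap no other gene.

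Fto, the other demethylase, gave different pictures in the 2 measures. Fto (ENSMUSG00000055932, chromosome 8, 91313532 to 91668439, plus strand) had 33.8, 34.3 and 39.5 TPM in hypoxia, against 39.7, 40.4 and 5.63 TPM in normoxia. The low value of normoxia replicate 3 pulled down the group mean, which was 28.6 TPM. The log2 difference of 0.72 (standard error 0.68, adjusted p = 0.403), or 0.85 relative to the median of all genes, was not called. Without that library the log2 fold change was −0.16 (adjusted p = 0.18), so its sign rests on 1 library. By coverage no library stood apart, with 7.27, 7.42 and 6.88 in hypoxia, against 6.85, 7.04 and 6.73 in normoxia (log2 fold change 0.06, standard error 0.06, adjusted p = 0.457). Read depth over the gene was thus not low in normoxia replicate 3. TPM was 4.65, 4.63 and 5.75 times the scaled coverage in hypoxia, against 5.79, 5.73 and 0.836 times in normoxia. In normoxia replicate 3 that factor was 1.06 times the one of Rbm15, Rbm15b and Zc3h13 in the same library, whereas in the other libraries it was 6.03 to 7.43 times that factor. Over 13660 genes, 99.7% had a smaller spread of this factor between libraries than Fto, and 119 genes (0.871%) had a spread of more than 4-fold. How the reads were divided among the 7 annotated transcripts of Fto was not analysed here. By coverage the difference between the groups lay within the spread between libraries.

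**Figure D3:**
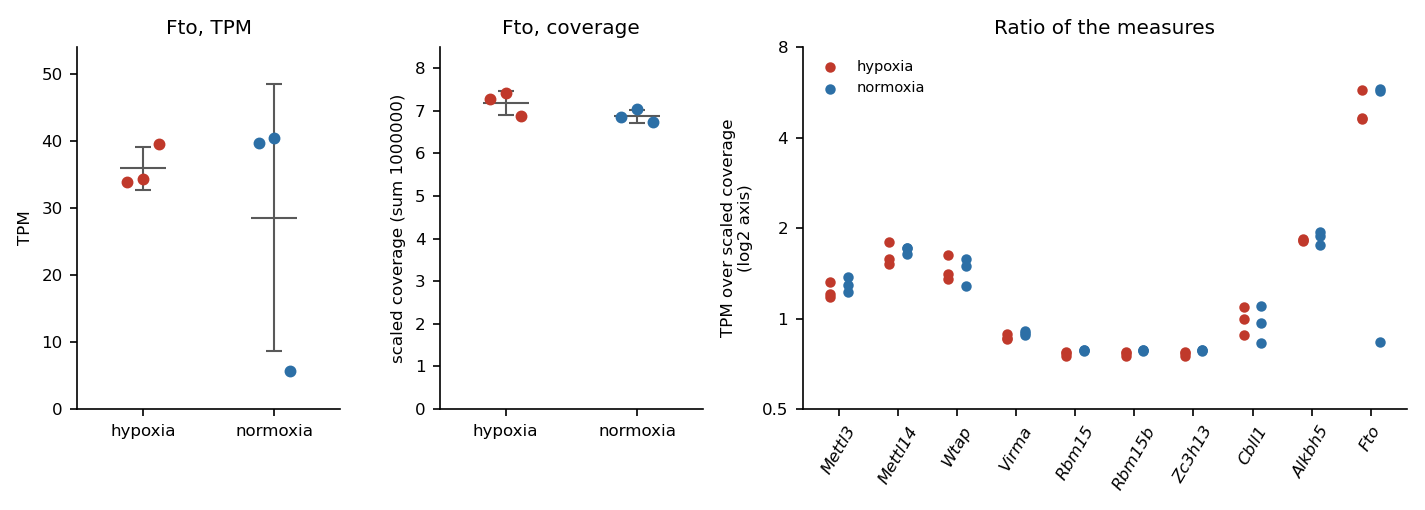
Fto in TPM (left) and in scaled coverage (middle), and the ratio of TPM to scaled coverage for all members on a log2 axis (right). Hypoxia libraries are red and normoxia libraries blue, and in the first 2 panels lines and bars are mean ± SD (n = 3 each). Normoxia replicate 3 is low in TPM (5.63) but not in coverage (6.73), and its ratio of 0.836 stands apart from the other 5 Fto values.

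The 2 demethylase genes kept different distances in the groups only by coverage, the measure added later. By coverage, Alkbh5 was at 17.1, 17.0 and 19.7 times the level of Fto in hypoxia, against 8.37, 7.76 and 8.86 times in normoxia. The difference of the mean log2 ratios was 1.10 (exact permutation test, 2-sided, p = 0.1, adjusted p = 0.1). By TPM the ratios were 6.65, 6.77 and 6.27 in hypoxia and 2.54, 2.55 and 20.5 in normoxia, and the groups overlapped (p = 1 in the exact permutation test). Against the methyltransferase gene, Alkbh5 TPM was 21.3, 22.2 and 21.1 times Mettl3 TPM in hypoxia, against 5.90, 6.97 and 9.49 times in normoxia, and again no library overlapped (difference of the mean log2 ratios 1.56, exact permutation p = 0.1, adjusted p = 0.133). These are ratios of mRNA levels and say nothing of protein or of m6A, which these libraries did not measure.

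**Figure D4:**
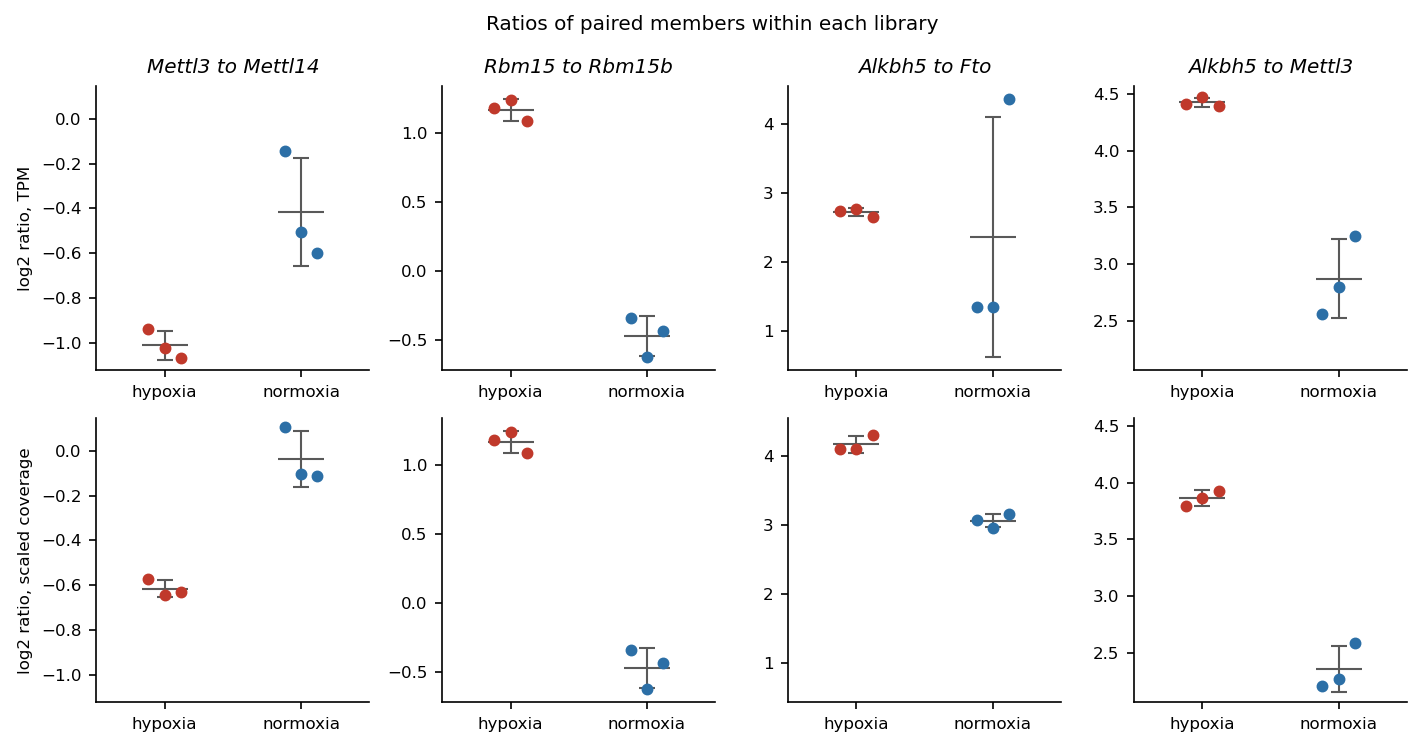
Log2 ratios of paired members within each library, by TPM (top) and by scaled coverage (bottom), with hypoxia (red) left of normoxia (blue), points for libraries and mean ± SD (n = 3 each). The groups are apart in every panel except Alkbh5 to Fto by TPM, where normoxia replicate 3 lies highest at a ratio of 20.5.

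The order of levels among the members was read within each group, since both measures are per length. By TPM in hypoxia it ran Alkbh5 (235 ± 11.6), Wtap (54.2 ± 4.12), Virma (38.9 ± 1.77), Fto (35.9 ± 3.17), Rbm15 (30.5 ± 0.640), Mettl14 (22.1 ± 2.33), Zc3h13 (15.4 ± 1.11), Rbm15b (13.6 ± 0.465), Cbll1 (11.8 ± 0.946) and Mettl3 (10.9 ± 0.724; mean ± SD in TPM, n = 3). In that list the neighbours Virma and Fto, and Cbll1 and Mettl3, overlapped. In normoxia Rbm15b stood above Mettl14 and Rbm15 below it, and Rbm15, Zc3h13, Mettl3 and Cbll1 overlapped with their neighbours. Fto overlapped with Rbm15b in normoxia, where it ranged from 5.63 to 40.4 TPM and was the lowest member in replicate 3. The place of Fto depended on the measure: by group mean it was the fourth by TPM and the last by coverage in both groups.

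Genes whose levels followed a member most closely were looked for over the 6 libraries on log2(TPM + 1). For Alkbh5 these were Zfp143 (Pearson's r = 0.999), Mta1 (0.999) and Ogt (0.999), and 267 of 13667 genes had r over 0.99. For Mettl3 they were Aqr (0.993), Fars2 (0.993) and Gk (0.987), and for Mettl14 they were Impa2 (0.989), Zfp516 (0.980) and Lbr (0.976). For Mettl3 2 genes had r over 0.99, and for Mettl14, whose groups overlapped in TPM, 0 did. The 6 points share the 2 groups, so any gene that is higher in hypoxia with little spread correlates with Alkbh5 in this way. For all 3 members r is given as a description.

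The genes around the complex were counted from lists of other m6A methyltransferases, readers, AlkB homologs, the S-adenosylmethionine cycle and the supply of 2-oxoglutarate. Of the 6 other methyltransferase genes, 2 were higher (Trmt112, the stabilising partner of several RNA methyltransferases, log2 fold change 0.32, and Pcif1, which methylates the cap-adjacent adenosine, 0.18) and none was lower by limma (1 at an unadjusted p under 0.05), with a list median of −0.08, against 17.9% and 36.1% of all tested genes and their median of −0.13. Trmt112 was called in all 26 fits and Pcif1 in 19, with an adjusted p of up to 0.0929 in the others. By coverage Mettl5, which methylates ribosomal RNA, was also called lower by limma (adjusted p = 0.0495). It was not called by TPM (adjusted p = 0.638), and 2 of the 26 fits called it. Mettl16, which methylates U6 snRNA and in human cells controls splicing of MAT2A, was at 9.74, 11.4 and 11.3 TPM in hypoxia, against 13.3, 13.2 and 11.9 TPM in normoxia (adjusted p = 0.0739), and was not called.

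Of 15 m6A readers 14 were tested, and by TPM 4 were lower and none higher in limma (1 higher at an unadjusted p under 0.05, list median −0.09). Since 36.1% of all tested genes were lower and their median was −0.13, this count does not set the readers apart. Ythdf2, which sends methylated mRNA to decay, had 18.6, 20.8 and 20.1 TPM in hypoxia, against 39.2, 29.4 and 29.0 TPM in normoxia (log2 fold change −0.67, adjusted p = 0.00331), and was called lower in all 26 fits. Hnrnpa2b1 (log2 fold change −0.29) was likewise called lower in all 26 fits, and Ythdf1 (−0.33) in 21 of them. Fmr1 was called lower in 17 fits (−0.61 by TPM and −0.32 by coverage). It had 34.7, 53.9 and 60.7 TPM in hypoxia, against 83.1, 69.0 and 72.0 TPM in normoxia. With TPM scaled by the median ratio or by quantiles, limma did not call it (adjusted p = 0.0753 and 0.0559). By coverage 3 readers were called higher (Igf2bp1, Rbmx and Elavl1) and 4 lower (Ythdf1, Ythdf2, Hnrnpa2b1 and Fmr1). Over all tested genes 25.0% were higher and 38.9% lower by coverage. With TPM scaled by the median ratio, 3 readers were higher and 2 lower, so the count by direction depends on the scaling. That scaling gave 3603 genes higher and 3622 lower among all 13749 tested, so the shift was not particular to the readers. Of the 7 other AlkB homologs, 3 were lower by TPM (Alkbh4, Alkbh7 and Alkbh8, log2 fold changes −0.44, −0.35 and −0.29), and none was higher (limma, 0 also at an unadjusted p under 0.05). The share of 3 in 7 lies near the 36.1% of all tested genes that were lower. With TPM scaled by the median ratio or by quantiles limma called none of them (at an unadjusted p under 0.05, 1 was lower with the median ratio and 0 with quantiles). By coverage 2 were lower (Alkbh4 and Alkbh8) and 0 higher, against 38.9% and 25.0% of all tested genes. Limma kept both calls by coverage with median-ratio scaling (adjusted p = 0.0394 and 0.0124). Alkbh8 was called in 24 of the 26 fits, Alkbh4 in 17 and Alkbh7 in 10.

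The gene with the lowest fold change in these lists was Mat2a of the S-adenosylmethionine cycle. Mat2a, the catalytic subunit of the synthetase that makes S-adenosylmethionine, had 45.6, 49.5 and 53.2 TPM in hypoxia, against 149, 146 and 147 TPM in normoxia. The ratio of the means was 0.336, and only 1.40% of tested genes had a lower fold change (log2 fold change −1.56, standard error 0.06, adjusted p = 6.11e-06). The call held in all 26 fits (log2 fold change −1.61 to −1.41). Of the 9 genes of the cycle, limma called 5 lower and none higher by TPM (0 higher at an unadjusted p under 0.05), with a median log2 fold change of −0.29, against 36.1% lower and −0.13 for all tested genes. Mtap, which salvages methylthioadenosine (−0.83), and Mtr, the methionine synthase (−0.56), were among the 5, and these were called in all 26 fits. The regulatory subunit Mat2b was at 84.2, 85.3 and 98.3 TPM in hypoxia, against 95.1, 81.2 and 92.9 TPM in normoxia, and was called higher by coverage only (adjusted p = 0.0144).

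Of the 11 genes that make or use 2-oxoglutarate or clear its reduced form, limma called 9 lower and none higher by TPM (1 higher at an unadjusted p under 0.05), with a median log2 fold change of −0.42, against 36.1% lower and −0.13 for all tested genes. By coverage 7 were lower and 1 higher, against 38.9% and 25.0% of all genes. Idh3g, Got2 and D2hgdh were called lower by TPM only, and Ogdh, a subunit of the 2-oxoglutarate dehydrogenase, by coverage only among these measures (log2 fold change −0.69, adjusted p = 1.05e-05). Idh1, the cytosolic isocitrate dehydrogenase, had 101.4, 101.0 and 101.0 TPM in hypoxia, against 178, 175 and 187 TPM in normoxia (log2 fold change −0.82, adjusted p = 1.61e-05). Idh3a, a subunit of the mitochondrial enzyme, had 53.7, 53.0 and 54.3 TPM in hypoxia, against 97.1, 95.8 and 96.3 TPM in normoxia (−0.83, adjusted p = 1.40e-05). Got1, the cytosolic aspartate aminotransferase, had a log2 fold change of −0.54 (adjusted p = 0.000163). With TPM scaled by the median ratio 6 genes of this list were lower and 1, Idh3b, was higher, against 3622 and 3603 of all 13749 tested genes. The 12 HIF target genes used as a check of the treatment were all higher (median log2 fold change 2.09, range 1.08 to 2.94). Whether HIF had a part in the levels of the members was not tested.

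**Figure D5:**
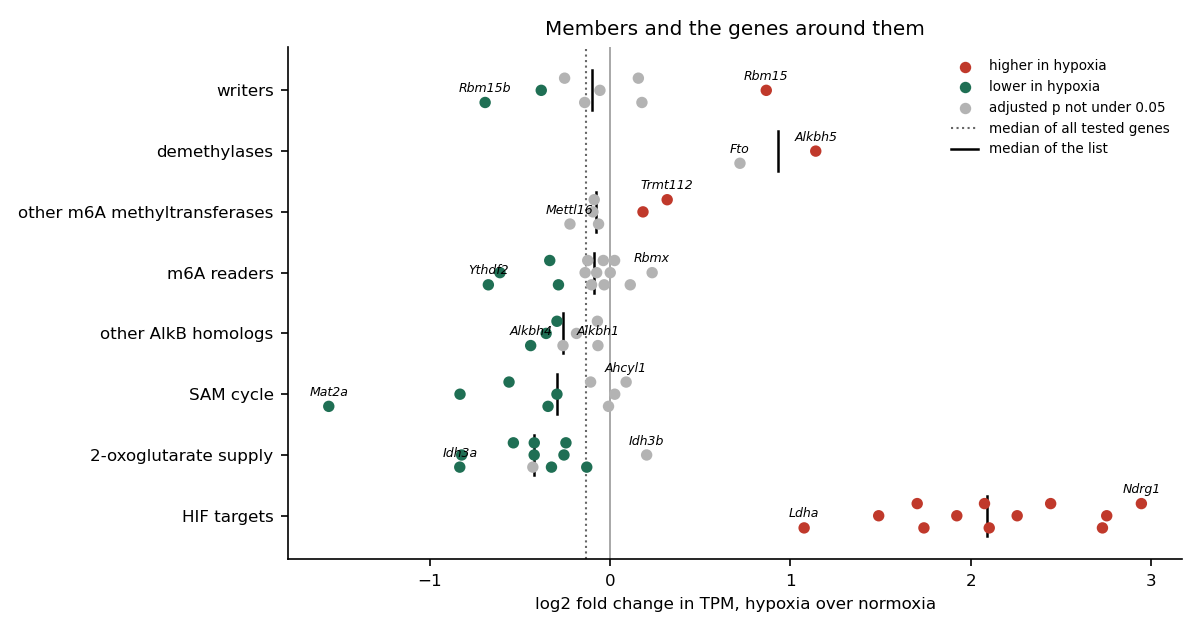
Log2 fold change in TPM of hypoxia over normoxia for the writers, the demethylases and 6 lists of related genes. Each point is a gene (red higher, green lower, grey adjusted p not under 0.05), black lines are list medians, the dotted line is the median of all tested genes, and the 2 extreme genes of each list are named. All 12 HIF targets lie right of 1, and Mat2a lies farthest left at −1.56.

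The cells were also checked against cell type markers. All 11 spermatocyte markers were under 1 TPM in every library and 6 of them were listed at 0 in all 6 (among them Sycp1, Stra8 and Piwil1), and the 8 spermatid and 5 germ line stem cell markers were under 1 TPM as well. The summed TPM of the spermatocyte markers was 0.251 to 0.827 in hypoxia and 0.595 to 0.971 in normoxia. Of 9 fibroblast and myoid markers 6 reached a mean of 1 TPM. Their sum was 2723 to 2978 TPM in hypoxia and 2290 to 2359 TPM in normoxia, almost wholly from the collagen genes Col1a1 and Col1a2, while Myh11, Dcn and Lum were under 1 TPM in every library. By TPM, Col1a1 was higher and Pdgfra and Pdgfrb were lower in hypoxia. Of the other lists, 3 of 8 Sertoli, 2 of 6 Leydig, 2 of 5 macrophage and 0 of 5 endothelial markers reached a mean of 1 TPM, and Sox9, Insl3 and Cd68 were called higher. The part of these cell type genes in the values of the m6A genes was not tested. In a bulk library, fewer cells of a kind and less RNA per cell cannot be told apart, and no source used here says whether strand entered the quantification, so reads shared with genes on the opposite strand cannot be separated.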

How the data were processed

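Poly(A) RNA of 6 libraries, 3 hypoxia and 3 normoxia, was analysed. Per the paper and labels, the authors trimmed paired reads (Cutadapt), mapped these to the mm10 genome (HISAT2) and used StringTie to assemble and quantify genes. Versions and the use of strand are not given in the sources used here. The deposited coverage (signal) gives the read depth averaged over the exons of a gene, the deposited FPKM is scaled for length and aligned fragments, and the deposited TPM lists annotated genes beside loci assembled from the reads. These 2 sets of rows overlap. The annotated rows sum to 948284 to 981418 TPM per library and the assembled ones to 1000000. The annotated rows were used as they stand, although a table with a single set had been assumed, and the assembled loci were not used here.

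Of 43432 gene IDs, 42462 were matched to symbols of GENCODE mouse release 21, and TPM was summed per symbol. Differences were tested with limma 3.58.1 (empirical Bayes with a variance trend, 2-sided) in R 4.3.3, on log2(TPM + 1) over genes with a mean of at least 1 TPM, with Benjamini-Hochberg adjustment and a threshold of 0.05. The authors used edgeR, which needs counts, so limma took its place. The steps were tested on simulated data. A pseudocount of 1 understates fold changes of low genes. Ratios within libraries were compared by exact permutation tests. Depth is given as aligned bases, computed from coverage and FPKM, and 3 libraries per group limit the precision.

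Alternatives were the pseudocount, the filter, the scaling, the exclusion of mitochondrially encoded genes, FPKM, a fit without the trend, a replicate block and leaving out each library. Coverage scaled to 1000000 per library, alone, with each library left out and with median-ratio scaling, was added after seeing the data. The members and gene lists were chosen with earlier results of these data known. All members are named, of each related list up to 3 called genes per direction with the smallest adjusted p, and for Alkbh5, Mettl3 and Mettl14 the 3 genes of highest r. Fmr1, Mat2b, Idh3b, Ogdh, Idh3g, Got2, D2hgdh and the overlapping genes were named after their values were seen. Protein sequences were not used here.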

Additional observations from a re-analysis of the deposited data

How the results depend on the processing

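Over the 26 fits, counting the fit on TPM itself, Alkbh5, Rbm15 and Rbm15b kept their direction and call. In the TPM fit 2 members were called higher and 2 lower. The number called lower was 1 with no filter, under the median-ratio scaling and under quantiles, and 4 without mitochondrially encoded genes and with FPKM. Of all tested genes, 4815 of 23954 were lower with no filter, 3622 of 13749 with the median ratio and 3639 of 13749 with quantiles. Without mitochondrially encoded genes 5402 of 13890 were lower, and with FPKM 5624 of 13749. Leaving out 1 library gave 1 to 3 members lower by TPM and 3 to 4 by coverage, and 2 to 3 higher by TPM. Of the 13749 tested genes, those fits called 4315 to 4781 lower by TPM and 4861 to 5188 lower by coverage. They called 2101 to 2295 of these genes higher by TPM. With coverage and median-ratio scaling together, 4 members were higher, and 4387 of all tested genes, against 2463 in the TPM fit. The log2 fold change of Virma turned to 0.0025 with median-ratio scaling. That of Zc3h13 turned to 0.0817 with median-ratio scaling, 0.144 with quantiles and 0.07185 with coverage and median-ratio scaling, and by coverage to 0.0212 without hypoxia replicate 3 and 0.0163 without normoxia replicate 1. That of Fto ranged from −0.16 (without normoxia replicate 3) to 1.16 when 1 library was left out. The difference of the log2 ratio of Alkbh5 to Fto ranged from −0.14 to 1.37 in the same way. It was negative without normoxia replicate 1 or replicate 2 and 1.37 without normoxia replicate 3. The cause of these changes was not tested. A group size of 3 libraries and the lack of read counts here limit the precision.

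With a replicate block, 2281 genes were higher and 4674 lower, Mettl3 was not called (adjusted p = 0.0706) and Wtap was called lower (adjusted p = 0.0263). No other member changed its call. The correlations of same-numbered libraries were 0.026, 0.033 and 0.011, so the numbers were not taken to pair the samples.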

Other observations

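By scaled coverage, the genes closest to Mettl3 over the 6 libraries were Adck2 (Pearson's r = 0.994), Ccdc167 (0.992) and Otub2 (0.991), and for Mettl14 Rpl9-ps6 (0.996), Wdr54 (0.993) and A130006I12Rik (0.993). The 6 points share the 2 groups, and r is a description.

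Among genes that overlap members, Sec24d, which crosses the span of Mettl14 on the other strand, had 95.6, 97.0 and 98.5 TPM in hypoxia, against 98.7, 94.4 and 98.7 TPM in normoxia. Dcaf1, which shares 75 exon bases with Rbm15b on the other strand, was not called by TPM with limma (adjusted p = 0.418) and was higher by coverage (log2 fold change 0.17, adjusted p = 0.0163), while Rbm15b was lower. Sec24d and Dcaf1 were named after their values were seen.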
